A study of Mus musculus with 6 samples.

Results

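The genes described here are Mitf, the transcription factor gene that directs the pigment cell programme, and 9 genes that carry pigment synthesis or the signals that pigment cells receive: Tyr, Tyrp1, Dct, Pmel, Mlana, Kit, Kitl, Ednrb and Mc1r. They were chosen by name. All 10 were measured, by 11 probe sets (groups of array probes read as 1 value) of the 21789 that the platform annotation gives to a single gene, and they are 10 of the 19938 genes tested. Dermal cells from the skin of neonatal C57BL/6 mice were cultured for 2 days and their total RNA was read on 6 one-colour Affymetrix arrays. The 3 DMSO arrays hold cells given the solvent, and the 3 FR arrays hold cells given 20 µM forskolin, an activator of the enzyme that makes cyclic AMP, with 20 µM RepSox, an inhibitor of the TGF-β type I receptor kinase. The compounds were given together, so their separate effects cannot be told apart. The labels mention no sorting and leave it unsaid whether replicates are separate cultures, so p-values cover the spread between these samples, and that spread may be technical. In such bulk RNA, fewer cells of a type and less RNA per cell cannot be told apart.

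In melanocytes, the pigment cells of skin and hair, cyclic AMP raised through the melanocortin receptor Mc1r acts on CREB, which switches on the melanocyte form of Mitf. MITF protein then binds short E-box and M-box elements in the promoters of pigment genes. The receptor kinase Kit with its ligand Kitl, and the endothelin receptor Ednrb, are needed for melanocyte precursors to survive and spread through the skin. Mitf is also used outside pigment cells, in osteoclasts, mast cells and other cells, from other start sites, where with its relatives Tfeb, Tfe3 and Tfec it controls lysosomal genes.

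Elements for CREB and MITF were searched in the promoters of these genes, so that the array values can be read beside the matches. Stretches of 80 bases are shown only for genes with a match. The windows of Kit and Kitl held none of the elements searched for CREB or MITF and are not shown. RefSeq windows of 300 bases (GRCm38.p6, from 250 bases before a start site to 50 after) were matched by symbol for 8 of the 10 genes, and 2, Pmel and Mlana, are named only. Capitals mark the cyclic AMP response element TGACGTCA in Mitf, its core TGACG in Ednrb and the E-box CATGTG in the others, searched on both strands (CACATG is CATGTG on the other strand).
Mitf, start site 3: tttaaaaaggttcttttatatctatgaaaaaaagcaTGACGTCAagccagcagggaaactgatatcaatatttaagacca
Tyr: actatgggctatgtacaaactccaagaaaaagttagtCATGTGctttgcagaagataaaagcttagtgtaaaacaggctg
Tyrp1: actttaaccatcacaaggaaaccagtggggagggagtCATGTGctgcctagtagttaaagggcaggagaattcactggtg
Dct: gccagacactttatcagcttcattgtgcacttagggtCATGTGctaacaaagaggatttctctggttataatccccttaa
Mc1r: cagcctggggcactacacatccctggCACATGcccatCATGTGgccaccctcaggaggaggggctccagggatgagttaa
Ednrb: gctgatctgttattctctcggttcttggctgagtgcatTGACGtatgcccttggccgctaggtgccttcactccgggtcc
The stretch of Mitf lies at chr6:97991594-97991673 on the plus strand and that of Tyrp1 at chr4:80834130-80834209 on the plus strand. Tyr lies at chr7:87493491-87493570 and Dct at chr14:118052354-118052433, both on the minus strand. Mc1r lies at chr8:123406994-123407073 on the plus strand and Ednrb at chr14:103843863-103843942 on the minus strand. The full cyclic AMP element begins 153 bases before start site 3 of the 3 that the table lists for Mitf and was found in 1.79% of all 32851 windows, while the windows of the other 2 Mitf start sites hold neither it nor its core. The core, which the full element contains, was found in 20.8% of all windows, and CATGTG in 14.2%. The E-box lies 21 bases before the start in Tyr, 46 in Tyrp1 and 150 in Dct, whose window holds another further upstream. In Mc1r both matches lie within the stretch, the nearer 51 bases before the start. In Tyr and Tyrp1 it sits within the full M-box, which adds AGT before and CT after it and is held by 7 windows (0.0213%). In Dct it sits within the M-box without its first base, held by 0.186% of all windows. The other E-box searched, CACGTG, was in none of the 11 windows of these genes and in 7.15% of all. The SMAD element CAGACA, searched because RepSox acts on the pathway of the SMAD proteins, was in windows of Mitf, Tyrp1, Dct and Kitl and in 21% of all. A match describes the letters only.

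Across the pigment cell genes, Mitf fell 2.28-fold, while the ligand gene Kitl rose 2.32-fold and the receptor gene Ednrb 1.94-fold. The genes of pigment synthesis themselves stayed near the array's background. Of the 10 genes, 5 rose and 1 fell at an adjusted p under 0.05 (limma's moderated test over all genes), while 27.9% of all genes tested passed that threshold, 13.4% higher and 14.5% lower. With arrays centred on their medians the split over all genes was 1880 higher and 3447 lower, against 2671 and 2888, and the pigment cell genes then had 4 higher and 1 lower. FR and DMSO values did not overlap for 7 of the 10, with FR above in 6 and below in 1. Over all genes 43.9% did not overlap, 23% with FR above and 20.9% with FR below. The median log2 change of the 10 was 0.25, against 0.05 over all genes, and 4 of the 10, 2 of which rose, stayed under the background level in both groups, where 13.7% of genes passed. That level is the 95th percentile of the group mean over 1027 olfactory receptor genes, most of which skin cells do not use, and it was 5.65 in DMSO and 5.92 in FR (log2 RMA values). Olfactory receptor genes had a median log2 change of 0.14, and 9.93% of them rose past the threshold, so a small rise of a dim gene has that share beside it.

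**Figure D1:**
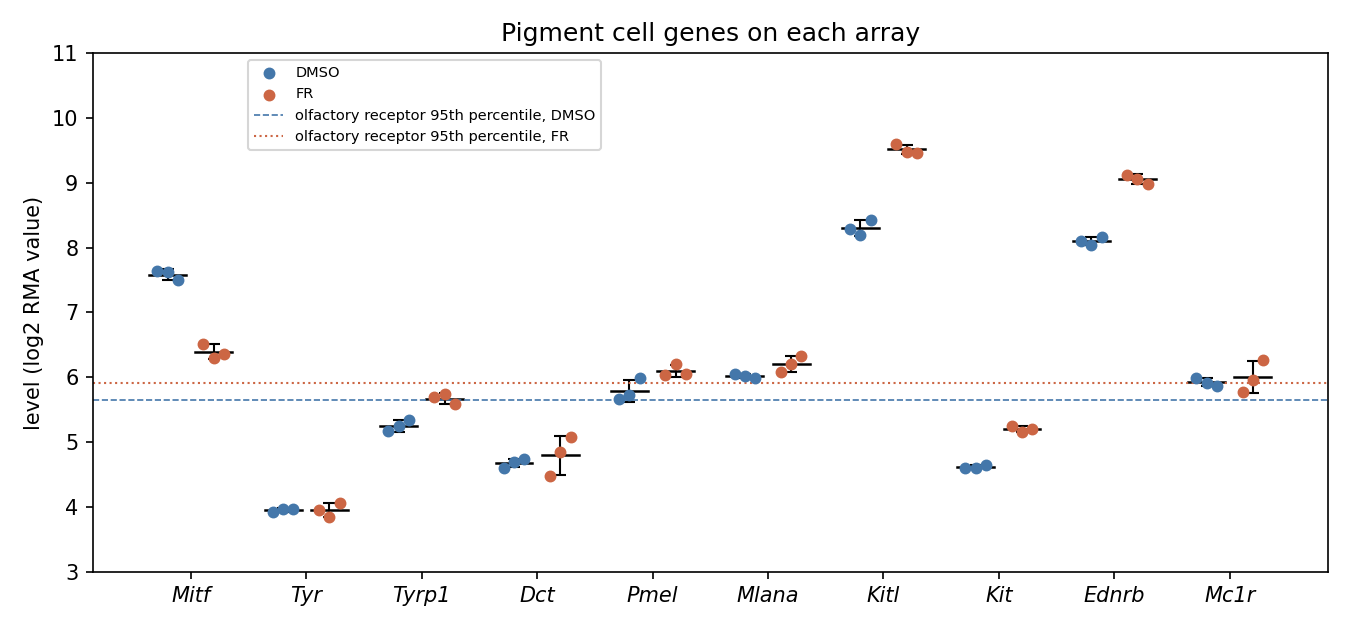
Level (log2 RMA value, y axis) of each of the 10 genes (x axis) on the 3 DMSO and 3 FR arrays, with the group mean as a bar and the SD as error bars. The lines mark the 95th percentile of olfactory receptor genes, 5.65 in DMSO and 5.92 in FR, and Tyr, Tyrp1, Dct and Kit lie under them by their means in both groups. Levels of different genes come from different probes and are not compared.

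Mitf was at 7.64, 7.62 and 7.49 on the DMSO arrays and at 6.52, 6.30 and 6.36 on the FR arrays. Every FR array was lower than every DMSO array, by more than the spread within either group. The level went from 7.58 ± 0.08 to 6.39 ± 0.11 (mean ± SD, n = 3), a 2.28-fold fall. The log2 change of -1.19 had an SE of 0.09 and an adjusted p of 4.28e-06, and 2.03% of all genes had a larger change in either direction. Both groups stayed above the background level.

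The other probe set of Mitf gave no usable reading. It read 2.96, 2.96 and 3.39 in DMSO and between 2.97 and 3.15 on the FR arrays, with a log2 change of -0.06 (SE 0.12, adjusted p = 0.739). Its mean lay at the 14.3th percentile of olfactory receptor genes in DMSO and the 10.5th in FR, so it gave no signal above background in either group and could not show a fall. With the mean of both probe sets in place of the brighter, the log2 change of Mitf was -0.63 (adjusted p = 0.000279). Which exons or start sites either probe set covers was not available, so these arrays do not say which Mitf start site was in use.

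**Figure D2:**
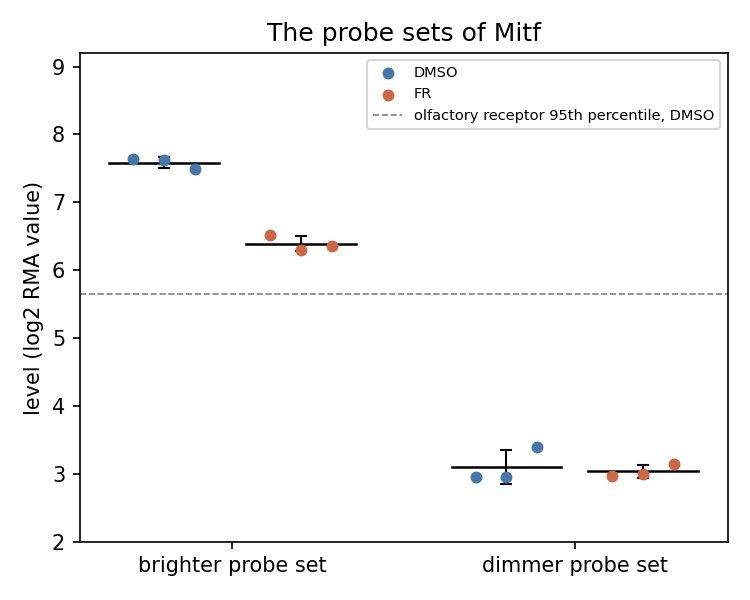
Level (log2 RMA value) of both Mitf probe sets on the 3 DMSO and 3 FR arrays, with mean and SD. The brighter probe set falls from 7.58 to 6.39, and the dimmer one stays near 3 in both groups, under the dashed line at 5.65.

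Of the relatives of Mitf that bind the same DNA elements, Tfe3 fell as well, from 7.30 to 6.74 (log2 change -0.55, SE 0.08, adjusted p = 0.000592). Tfeb, the regulator best known for lysosomal genes, had a log2 change of 0.00 (adjusted p = 0.986). Its mean was 5.86 in both groups, near the background level and under it in FR. Tfec, which macrophages use, rose by 0.44 with both means under the background level (adjusted p = 0.0177).

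Among 17 genes listed here as regulators of Mitf, 5 rose and 2 fell, and 10 did not pass (median log2 change 0.23). Whether each of them acts on Mitf was not tested. The shares over all genes were 13.4% higher and 14.5% lower. The neural crest factors that start Mitf in melanocyte precursors did not pass: Sox10 had a log2 change of 0.23 (adjusted p = 0.123) and Pax3, under the background level, one of -0.13 (adjusted p = 0.392). Id2, which encodes an inhibitor of basic helix-loop-helix factors, rose by 1.12 and the repressor gene Snai2 by 0.72. Gli2, whose protein acts downstream of TGF-β to repress Mitf in melanoma cells, rose by 0.43 (adjusted p = 0.00422), and the zinc finger gene Zeb2 by 0.42. Sox9 fell by 0.59 and Ctnnb1, the β-catenin gene, by 0.54. Tfap2a, which keratinocytes express too, rose by 0.58 under the background level.

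On the route from cyclic AMP to Mitf, 4 of 13 genes measured rose and 3 fell (median log2 change 0.13). Of all genes, 13.4% rose and 14.5% fell. Crem, a CREB-family gene that cyclic AMP itself induces, rose from 6.57 to 7.65 (log2 change 1.08, adjusted p = 3.03e-05). Sik2, a kinase that restrains the CREB coactivators and Mitf in melanocytes, rose by 0.83, and the phosphodiesterase genes Pde4b and Pde4d, whose enzymes break down cyclic AMP, by 0.62 and 0.44. Prkacb, a catalytic subunit of protein kinase A, fell by 0.42, its regulatory subunit gene Prkar1a by 0.33 and the coactivator gene Crtc3 by 0.25. Creb1 had a log2 change of -0.23 that did not pass (adjusted p = 0.0949). Gnas and Prkaca were not analysed here.

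Of 20 known target genes of MITF outside pigment synthesis, 11 fell, 1 rose and 8 did not pass, where 14.5% of all genes fell and 13.4% rose. Only 2 of the 20 lay under the background level in both groups, against 37.5% of all genes. Of genes that dim, 13.7% passed and 12.2% rose. With dim genes left out, 3262 of 12454 genes fell and 2179 rose, so a larger share fell than the 14.5% over all genes. Of these targets, 13 passed in that test, in either direction. The median log2 change of the 20 was -0.38, against 0.05 over all genes and 0.12 over genes under the background level in both groups. The list was drawn up with earlier results of these data known, so its count and median are descriptions only. Ctsk, the collagen-degrading cathepsin of osteoclasts and fibroblasts, fell from 10.38 to 8.74 (log2 change -1.64, SE 0.11, adjusted p = 1.44e-06). Rragd, a GTPase gene of nutrient sensing at the lysosome, fell by 1.22 to a level under background. Fnip2 and Flcn, partners in that sensing, fell by 0.83 and 0.51, and the lysosomal channel gene Mcoln1 by 0.45. Clcn7 and Ostm1, which form a lysosomal chloride transporter, fell by 0.46 and 0.79. Gpnmb, a glycoprotein gene of melanosomes and lysosomes, fell by 0.84. The 1 rise was that of Ppargc1a, a coactivator gene that cyclic AMP also induces, from a level under background (4.94) to 6.29. Bcl2 (log2 change -0.02) and the osteoclast phosphatase gene Acp5 (-0.01) did not pass.

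The enzymes of melanin synthesis were at background. Tyr, which encodes the rate-limiting enzyme tyrosinase, read 3.92, 3.96 and 3.97 in DMSO and 3.96, 3.85 and 4.07 in FR. The groups overlapped, and the log2 change was 0.01, with a 95% interval from -0.19 to 0.20. Its mean in DMSO lay at the 47.4th percentile of olfactory receptor genes, so tyrosinase RNA was not detectable above background on these arrays.

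Dct, the dopachrome tautomerase gene and an early marker of melanoblasts, read 4.61, 4.69 and 4.74 in DMSO and 4.47, 4.84 and 5.08 in FR. FR values lay on both sides of the DMSO values, with FR replicate 3 the highest. The log2 change was 0.12 (95% interval -0.18 to 0.41, adjusted p = 0.537).

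Tyrp1, which encodes the remaining enzyme of the family, read 5.17, 5.24 and 5.34 in DMSO and 5.69, 5.74 and 5.59 in FR. The groups did not overlap, and Tyrp1 rose by 0.42 on the log2 scale (SE 0.09, adjusted p = 0.00444), with both means under the background level. A change at least as large was seen in 38 of the 1027 olfactory receptor genes (3.7%). Among genes under the background level in both groups, 12.2% rose past the threshold.

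Pmel, which encodes the fibril protein of the melanosome, read 5.66, 5.72 and 5.99 in DMSO and 6.04, 6.20 and 6.04 in FR. The groups were close but did not overlap, and the rise of 0.31 (SE 0.10) passed narrowly (adjusted p = 0.0479). It did not pass when an array was left out, be it DMSO replicate 1 (adjusted p = 0.168), DMSO replicate 2 (0.144), FR replicate 1 (0.0604), FR replicate 2 (0.137) or FR replicate 3 (0.0776), nor with the replicate number as a block (0.0672), but it passed without DMSO replicate 3 (0.0194). The call was also lost under each of the 3 other scalings. A further 15 probe sets, which the annotation gives to Pmel together with other genes, were left out.

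Mlana, a melanosome protein gene used as a melanocyte marker, read 6.05, 6.02 and 5.98 in DMSO and 6.08, 6.20 and 6.33 in FR. All FR arrays were above the DMSO arrays, but the log2 change of 0.18 did not pass (95% interval -0.01 to 0.38, adjusted p = 0.149). A change at least as large was seen in 37.4% of olfactory receptor genes, against 13.9% for that of Pmel.

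**Figure D3:**
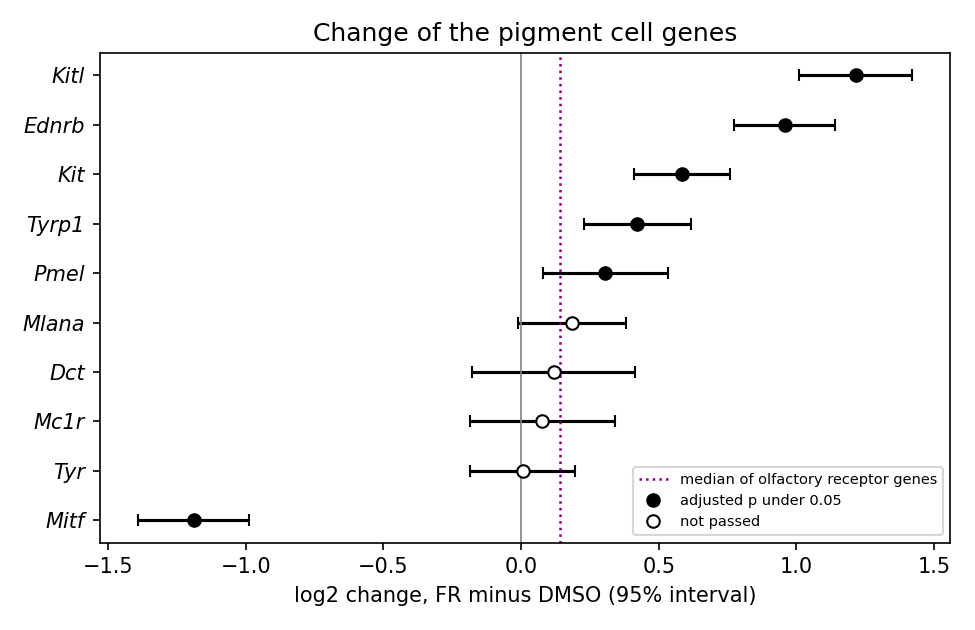
Log2 change (FR minus DMSO) of the 10 genes with limma's 95% interval, filled where the adjusted p is under 0.05. Kitl (1.22) and Ednrb (0.96) stand at the top and Mitf (-1.19) at the bottom, and the intervals of Tyr, Dct, Mlana and Mc1r include 0. The dotted line marks the median of olfactory receptor genes, 0.14.

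Of 18 further genes of the melanosome and of pigment, 4 rose and 5 fell (median log2 change 0.09). The all-gene shares were 13.4% higher and 14.5% lower. Genes used mainly by pigment cells and the eye were dim or near the background level. Oca2, Gpr143 and Trpm1 had log2 changes of 0.11, 0.12 and 0.07 under that level in both groups, and none passed. Slc24a5 (6.07 to 6.15), Tspan10 (5.71 to 5.93) and Mlph (5.86 to 6.04), which serve melanosomes, were above it in both groups and did not pass either. Slc45a2, a transporter gene of the melanosome, rose by 0.34 under the background level (adjusted p = 0.0133). The genes that fell also serve other cells: the motor gene Myo5a fell by 0.89, Gpnmb by 0.84, Sytl2, which encodes a partner of Rab27a, by 0.75, and the GTPase genes Rab32 and Rab27a by 0.69 and 0.56. Slc7a11, the cystine transporter gene that sets the yellow to black balance of mouse pigment, rose by 1.12 from 5.74 to 6.86 (adjusted p = 3.55e-05). Rab38, the close relative of Rab32 in delivering enzymes to melanosomes, rose by 0.67.

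Of 20 genes for complexes that build melanosomes and related organelles, 8 fell and 1 rose (median log2 change -0.17). Over all genes 14.5% fell and 13.4% rose. All 20 lay above the background level in both groups. Of the 12454 genes above that level in at least 1 group, 3262 fell and 2179 rose when tested alone. That is a larger share of falls than the 14.5% over all genes. The adaptor complex AP-3 was split, with Ap3d1, Ap3m1 and Ap3b1 lower by 0.60, 0.49 and 0.44 and Ap3s1 higher by 0.57. Lyst, the lysosome trafficking gene mutated in beige mice, fell by 0.67. The count of 9 genes past the threshold went to 5 without DMSO replicate 3 and to 5 without FR replicate 3.

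**Figure D4:**
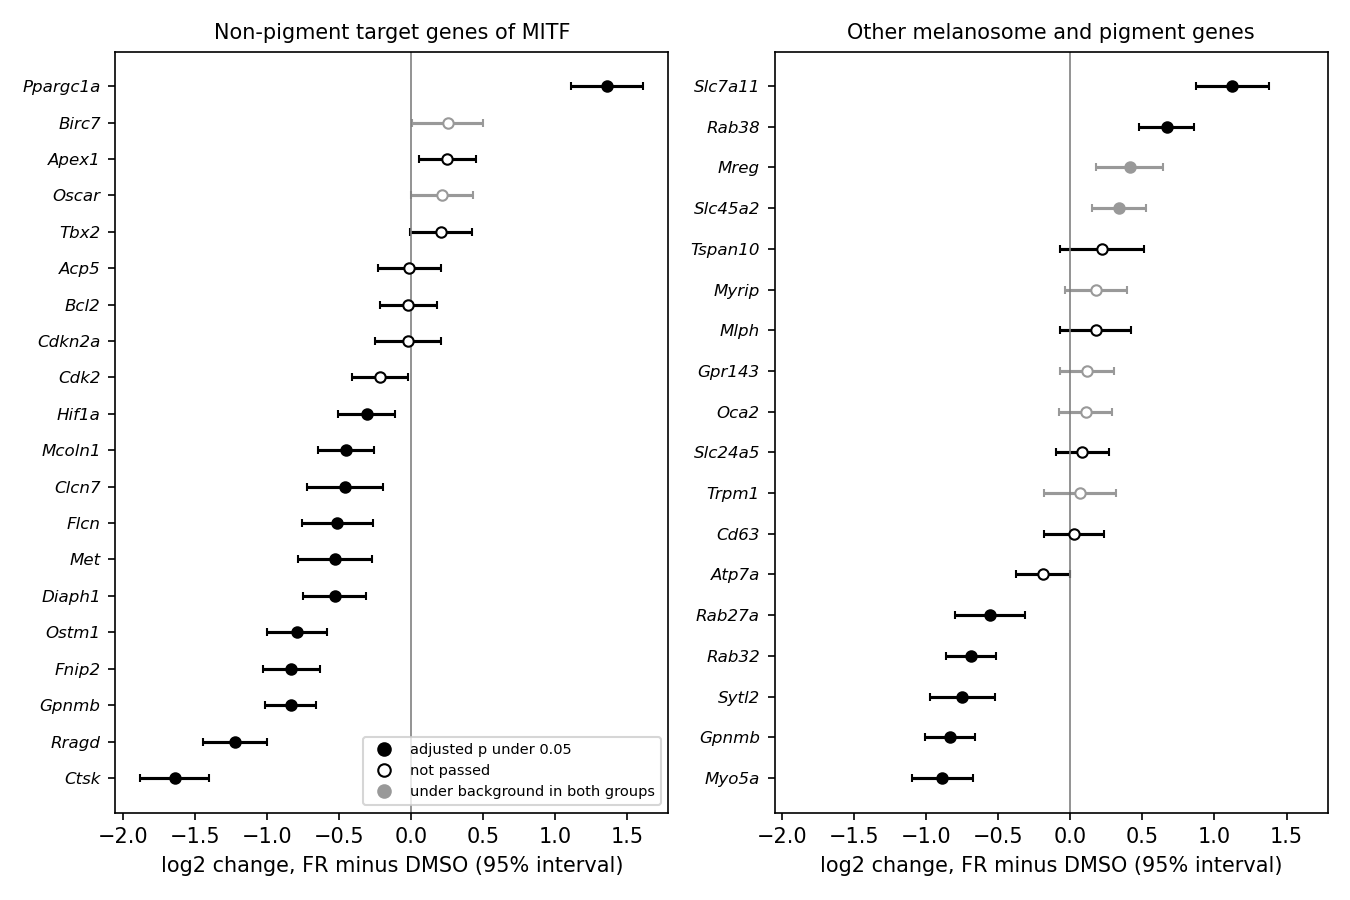
Log2 change (FR minus DMSO) with limma's 95% interval for non-pigment target genes of MITF (left) and other melanosome and pigment genes (right), filled where the adjusted p is under 0.05 and grey where both group means lie under the background level. On the left 11 of 20 genes fell and Ppargc1a rose, and on the right 5 of 18 fell and 4 rose. Over all genes 14.5% fell and 13.4% rose.

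Of the ligand and receptor genes among the 10, Kitl, Kit and Ednrb rose and Mc1r did not pass. Kitl, the KIT ligand or stem cell factor, which fibroblasts and keratinocytes supply to melanocytes and mast cells, read 8.28, 8.19 and 8.43 in DMSO and 9.60, 9.48 and 9.46 in FR. All FR arrays were above all DMSO arrays by far more than the spread. It rose 2.32-fold, from 8.30 ± 0.12 to 9.51 ± 0.07 (log2 change 1.22, SE 0.09, adjusted p = 4.03e-06), and 1.93% of genes had a larger change in either direction.

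Kit, the receptor of that ligand, was dim: it read 4.61, 4.60 and 4.65 in DMSO and 5.25, 5.15 and 5.21 in FR. The groups were well apart, and Kit rose by 0.58 on the log2 scale (SE 0.08, adjusted p = 0.000274). Both means lay under the background level, at the 72.4th and 84.3th percentiles of olfactory receptor genes. Of those genes, 7 of 1027 (0.682%) had a change at least as large.

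Ednrb, the endothelin receptor of melanoblasts and enteric neuron precursors, which dermal fibroblasts, pericytes and other cells also express, read 8.10, 8.04 and 8.16 in DMSO and 9.12, 9.06 and 8.98 in FR. The groups were far apart, and Ednrb rose 1.94-fold, from 8.10 ± 0.06 to 9.06 ± 0.07 (log2 change 0.96, SE 0.08, adjusted p = 1.12e-05). None of the olfactory receptor genes rose as much as Kitl or Ednrb did. Nearly all of those genes are dim, so they set no scale for changes of bright genes.

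Mc1r, the melanocortin receptor that raises cyclic AMP in melanocytes, read 5.99, 5.91 and 5.87 in DMSO and 5.77, 5.97 and 6.27 in FR. The groups overlapped, and the log2 change of 0.08 did not pass (95% interval -0.19 to 0.34, adjusted p = 0.655). The spread in FR (SD 0.25) was wider than in DMSO (SD 0.06). The means of Mc1r, 5.92 in DMSO and 6.00 in FR, lay little above the background level of 5.65 and 5.92.

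Other ligands, receptors and processing enzymes of melanocytes rose in 4 of 19 cases and fell in 2 (median log2 change 0.17). Over all genes 13.4% rose and 14.5% fell. Endothelin genes did not pass: Edn3, the ligand that melanoblasts need, had a log2 change of 0.28 (adjusted p = 0.0578). Edn1, under the background level in both groups, had one of 0.17 (adjusted p = 0.251). Pomc, the precursor gene of the melanocortins, had a log2 change of 0.27 under the background level (adjusted p = 0.0518). Hgf, the growth factor gene that acts on melanocytes through Met, rose by 1.22 while Met fell by 0.53. Bmp4 rose by 1.49 from 6.66 to 8.15 and Fgf2 by 0.40, and Dkk3, of a Wnt inhibitor family, fell by 1.14. The melanocortin receptor gene Mc5r, which sebaceous glands use, rose by 0.77 under the background level. Asip and Ednra were not analysed here.

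Adaptors and regulators of KIT signalling, which most cells share, fell in 4 of 15 cases and rose in 2 (median log2 change -0.16). Over all genes 14.5% fell and 13.4% rose. Cbl, the ligase gene that removes active KIT, fell by 0.66, the kinase gene Map2k1 by 0.62 and the adaptor genes Shc1 and Gab2 by 0.52 and 0.34. The feedback inhibitor genes Spry2 and Spry4 rose by 0.48 and 0.47.

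Markers of the cells that could carry these genes were read on the same arrays. Over all genes 13.4% rose and 14.5% fell, and 13.7% of genes under the background level in both groups passed. Of 10 further melanocyte markers, 7 lay under the background level in both groups and 1, Slc45a2, rose, with 2 called without FR replicate 1. Their mean level was 5.05 to 5.09 in DMSO and 5.11 to 5.28 in FR. Of 10 Schwann cell and neural crest markers, 6 lay under the background level and 1, S100b, rose by 0.27 (adjusted p = 0.044), a call lost without DMSO replicates 2 or 3 or FR replicate 1, each of which leaves 0 calls in that list. Dermal fibroblast markers were all above the background level, with 5 of 12 higher and 6 lower. The proteoglycan gene Lum rose by 2.17 and Fbln1 by 1.03, while the collagen genes Col1a2 and Col1a1 fell by 1.57 and 1.09.

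Mast cells carry Kit, and of their 10 markers 9 lay under the background level in both groups. The protease genes Cpa3, Cma1, Mcpt4, Tpsb2 and Tpsab1 and the IgE receptor genes Fcer1a and Ms4a2 were among them and none passed. Their mean level, with Kit included, was 4.44 to 4.55 in DMSO and 4.66 to 4.74 in FR. Besides Kit, Hdc rose by 0.37, and 1 call remained without DMSO replicate 2 and 1 without FR replicate 3. Of all genes under the background level in both groups, 12.2% were called higher. Of 10 macrophage markers, 8 lay under the background level, and Cx3cr1 and Fcer1g rose by 0.37 and 0.32. That count of 2 became 0 without DMSO replicate 2 or FR replicate 3 and 1 without DMSO replicate 1, DMSO replicate 3 or FR replicate 2.

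Keratinocytes supply Kitl in skin, and their markers moved with the treatment. Of 18, 15 rose and none fell, with a mean level of 6.03 to 6.14 in DMSO and 7.01 to 7.11 in FR. Of all genes tested, 13.4% were called higher and 14.5% lower. Krt5 rose by 2.18, Krt16 by 2.03, Perp by 1.82 and Krt6a by 1.63, while Krt1 had a log2 change of 0.06 under the background level. Their part in the rise of Kitl was not tested. For Ednrb, which dermal fibroblasts also express, endothelial and pericyte markers were read besides the fibroblast markers given above. Among 12 endothelial markers 4 were called higher and 1 lower. Emcn rose by 0.68 and Tek by 0.54, both under the background level, Erg by 0.46 from under to above it, and Esam by 0.35 under it. Pecam1 (4.94 to 5.11), Kdr (4.88 to 4.95) and Cldn5 (4.97 to 5.05) lay under the background level without passing. Flt1, the VEGF receptor gene, fell by 2.12 to a level under background. Among 10 pericyte markers 3 were called higher and 2 lower. Kcnj8 and Abcc9, which form a potassium channel, rose by 1.74 and 1.31, Pdgfrb fell by 0.96 and Cspg4 by 0.64, and Rgs5 lay under the background level (4.78 to 4.84). The part of fibroblasts, endothelial cells and pericytes in the rise of Ednrb was not tested.

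Across the 6 arrays, the genes whose values followed those of Mitf most closely were Nexn, Exoc4, Rab31, Impact and Vps13c, with Pearson r of 0.999 among 12454 genes above the background level in at least 1 group. All 5 fell with FR, by 1.74, 0.93, 1.32, 0.63 and 0.98 on the log2 scale. The 6 points share the difference between the groups.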

How the data were processed

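Total RNA of 3 DMSO and 3 FR samples was labelled as biotinylated cRNA, per the labels' protocols. The deposited table holds 1 log2 value per probe set and array, which the authors computed with RMA, using the oligo package, per the submitters' processing notes; no version is named there. RMA usually includes background correction and quantile normalization. No background correction could be repeated, and no batch is given in the labels. The number of arrays limits the precision: the median SE of a log2 change was 0.10. Array medians were 5.983 to 6.002 in DMSO and 6.015 to 6.074 in FR, so every FR median was above every DMSO median. Correlations between arrays (across genes, which are not independent) were 0.993 to 0.996 within groups and 0.972 to 0.978 between them.

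Of 35556 probe sets, 21789 had 1 gene symbol, 1621 several and 12146 none. The RefSeq table of GRCm38.p6 held the identifiers of 21698, with 0 symbols changed. The brightest probe set of a gene over all arrays was taken. The test of each change was limma's (version 3.58.1, R 4.3.3; lmFit and eBayes, two-sided, group as the only term, Benjamini-Hochberg over 19938 genes, threshold 0.05), checked on simulated data. Intervals are limma's, unadjusted. A planned test for unequal change of the Mitf probe sets (diffSplice) is not reported, since 1 of them was at background. Same-numbered samples did not deviate together, so the main test has no block. The genes and lists were chosen with earlier results of these data known. Besides the 10 genes, up to 4 genes of each list with the largest change past the threshold, the listed genes Tfeb, Tfe3, Tfec, Sox10, Pax3, Edn1, Edn3, Pomc and Crem and the 5 genes most like Mitf are named. Other list members named were chosen after their values were seen. Alternatives were other scalings, dim genes left out, probe sets averaged, other variance settings, array weights, a block, a test against a log2 change of 0.5, leaving out each array and, added after seeing the data, testing every probe set.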

Additional observations from a re-analysis of the deposited data

How the results depend on the processing

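Mitf, Kitl and Ednrb kept their direction and their side of the threshold in all 17 alternatives, with log2 changes from -1.25 to -0.63, 1.16 to 1.30 and 0.90 to 1.04 and adjusted p of up to 0.00571, 0.00587 and 0.00432. Kit and Tyrp1 held in 15 of 16 each. Tyr, Dct, Mlana and Mc1r passed in none, and the sign of Tyr, Dct and Mc1r varied. The cause of the differences below was not tested.

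Pmel passed in 4 of 17 alternatives. It was lost with quantile normalization (0.24, adjusted p = 0.113), median centring (0.25, 0.103), cyclic loess (0.23, 0.123), ordinary variance (0.31, 0.154), array weights (0.31, 0.0621), every probe set tested (0.31, 0.0505) and the replicate number as a block (0.31, 0.0672). Leaving out 1 array gave 0.24 to 0.40. Same-numbered samples correlated at -0.07, 0.05 and -0.03 in their deviations. They showed no shared deviation, but this cannot say whether the cultures were paired. The block left 4 of the 10 genes higher, 2311 genes higher and 2666 lower in all, and 0 Schwann cell markers called.

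Against a log2 change of 0.5, Tyrp1 (0.42), Pmel (0.31) and Kit (0.58) did not pass (adjusted p of 1 each), which left 2 of the 10 genes higher, and 412 higher and 430 lower over all genes. The lists then had 1 call among the MITF/TFE factors, 1 among the regulators of Mitf, 2 on the cyclic AMP route, 3 among ligands and receptors, 3 among melanosome genes, 0 among melanosome complexes, 5 among MITF targets and 0 among KIT adaptors. Marker calls were 9 for keratinocytes, 1 endothelial, 3 pericyte, 4 fibroblast and 0 for each of melanocytes, Schwann cells, mast cells and macrophages.

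With ordinary variance 1484 genes were higher and 1880 lower, and marker calls were 0 for Schwann cells, 1 for mast cells, 0 for macrophages and 3 endothelial. With dim genes left out, Kit and Tyrp1 were not tested, 3 of the 10 genes were higher, and marker calls were 0 for melanocytes, 0 for mast cells, 1 for macrophages and 3 endothelial. Quantile normalization gave 0 melanocyte, 2 Schwann cell and 1 macrophage calls, and cyclic loess 0, 2 and 1 with 1 for mast cells. Median centring and trended robust moderation each gave 1 macrophage call. Leaving out 1 array gave 5 to 9 calls among melanosome complexes, 1 to 2 for melanocyte, 0 to 1 for Schwann cell, 1 to 2 for mast cell and 0 to 2 for macrophage markers. RMA values do not allow another background correction, and batches of slides or scans were not analysed here.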

Other observations

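The FR arrays were not alike for the genes that did not pass. FR replicate 3 gave the highest value of the 3 FR arrays for Tyr (4.07), Dct (5.08), Mlana (6.33) and Mc1r (6.27), and it had the highest median over all probe sets, 6.07 against 6.01 and 6.05. For Tyrp1 (5.59), Kitl (9.46) and Ednrb (8.98) the same array gave the lowest FR value.

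Of the 7 windows with the full M-box, 3 belong to genes on these arrays: Tyr, Tyrp1 and the complement gene C1qb, which had a log2 change of 0.20 (adjusted p = 0.452) under the background level.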
